A study of Mus musculus with 23 samples.

Results

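Transcripts of the aminoacyl-tRNA synthetases were examined in brown adipose tissue (BAT) of control and BAT-Mcu-KO mice at room temperature (RT) and after cold exposure. The members were taken by gene symbol from the 14651 genes measured. They are 36 genes, 20 that encode cytosolic synthetases and 16 that encode mitochondrial ones, and all 36 were kept in the table and tested. RNA was sequenced from the BAT of 23 male C57BL/6 mice aged 8 to 12 weeks. Control mice (genotype Mcu[fl/fl]) carried the loxP-flanked alleles of Mcu without Cre, and BAT-Mcu-KO mice carried the same alleles together with a Ucp1-Cre transgene, in which the promoter of Ucp1 drives the Cre recombinase, so recombination is limited to cells in which that promoter is active. There were 6 control mice at RT, 5 control mice kept for 6 h at 4°C, 6 BAT-Mcu-KO mice at RT and 6 BAT-Mcu-KO mice kept for 6 h at 4°C. The cages at 4°C held a single mouse each, with water and without bedding, and food was withheld unless the protocol stated otherwise. Temperature therefore cannot be told apart from the feeding state, single housing or the lack of bedding in these groups.

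Each aminoacyl-tRNA synthetase joins an amino acid to its own tRNA, and the charged tRNAs feed translation. Mammalian cells keep a set of enzymes for the cytosol and another, also encoded in the nucleus, for the mitochondrial matrix, where the few proteins encoded by mitochondrial DNA are made. Some enzymes break this scheme: Gars and Kars each encode both the cytosolic and the mitochondrial form of their enzyme, Eprs encodes a single protein that charges tRNAs for both glutamate and proline, and mitochondria make glutaminyl-tRNA by amidating a mischarged tRNA. Several of the cytosolic enzymes sit together in the multisynthetase complex. Many cytosolic synthetase genes are known targets of ATF4, the transcription factor of the integrated stress response, which binds a composite element called CARE.

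The CARE element was searched in the promoters, since it is the sequence through which ATF4 is known to act on synthetase genes. Promoter sequences from RefSeq (GRCm38.p6), spanning 250 bases before to 50 bases after the start of the gene, were at hand for 13 of the 20 cytosolic and 14 of the 16 mitochondrial members. The letters TGATGNAA, read on both strands, were found in the promoters of 5 cytosolic members (Aars, Gars, Iars, Tars and Yars) and 0 mitochondrial members, against 3.97% of all 32851 promoters. The match nearest to the start of each of these genes is printed in a window of 30 bases, 5′ to 3′ on the strand of the gene, with the matched letters in capitals. They lie at chr8:111033840-111033869 for Aars, chr6:55037960-55037989 for Gars, chr13:49682126-49682155 for Iars, chr15:11399655-11399684 for Tars, which is on the minus strand, and chr4:129189895-129189924 for Yars. The other 4 genes are on the plus strand.
Aars: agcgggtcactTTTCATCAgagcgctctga
Gars: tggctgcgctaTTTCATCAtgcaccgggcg
Iars: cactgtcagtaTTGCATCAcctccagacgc
Tars: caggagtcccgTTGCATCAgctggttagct
Yars: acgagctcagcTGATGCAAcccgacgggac
The match in Yars reads along the gene and the other 4 read on the opposite strand. The cAMP response element TGACGTCA, searched in the same way, was found in 1.79% of all promoters and in 0 members. A match of letters does not show that a factor binds there.

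The libraries held 7129271 to 21006347 reads on the genes measured. The targeted gene, Mcu, was lower in every BAT-Mcu-KO mouse than in any control mouse at each temperature, with a normalized read count of 81.4 to 136 in the 6 control mice and 15.2 to 42.4 in the 6 BAT-Mcu-KO mice kept at RT. Of the markers, all 7 brown adipocyte genes listed (Ucp1, Cidea, Ppara, Pparg, Adipoq, Plin1 and Fabp4) were in the table, and their summed count was 179876 to 249945 in control mice at RT and 259852 to 315291 at 4°C. The members of the list did not move together: 3 rose by cold in control mice, with Ucp1 at a log2 change of 1.37, and 3 fell, with Ppara at -0.58, and the median was -0.24. The 6 skeletal muscle markers summed to 6.22 to 39589 and split the libraries: 5 of them, control 4°C mice 2 and 5 and BAT-Mcu-KO RT mice 3, 4 and 6, had a sum above 20000, and the highest of the others was 9077. Endothelial markers (5 genes) summed to 2967 to 4345 in control mice at RT and 4925 to 7717 at 4°C, where Pecam1 and Kdr rose (0.93 and 1.16 on the log2 scale), Tie1 fell (-0.69) and 2 were not called. Macrophage markers (5 genes) summed to 501 to 829.1 at RT and 538 to 834 at 4°C in control mice, with 0 called, and to 404 to 730.4 and 718 to 1072 in BAT-Mcu-KO mice, with 3 higher. By cold, 22.3% of all genes rose and 23.7% fell in control mice, while 21.4% rose and 21.9% fell in BAT-Mcu-KO mice. Fibroblast (4 genes) and Schwann cell markers (3 genes) summed to 3253 to 7587 and 35.0 to 295 over all mice. The part of these cells in the results was not tested. In bulk tissue, fewer cells of a type and less RNA per cell cannot be told apart.

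In control mice at 4°C most cytosolic synthetase transcripts were higher than at RT, while more mitochondrial ones fell than rose. Of the 20 cytosolic members 13 rose, 0 fell and 7 were not called, at an adjusted p-value under 0.05 by limma with Benjamini-Hochberg adjustment over all genes tested. Of the 16 mitochondrial members 2 rose, 7 fell and 7 were not called. Over all 14651 genes, 22.3% rose and 23.7% fell. The median log2 change from RT to 4°C was 0.69 over the cytosolic members and -0.15 over the mitochondrial ones, against -0.02 over all genes. Every control mouse at 4°C was above every control mouse at RT for 11 cytosolic members and 1 mitochondrial member, and below for 0 and 2 respectively, where 13.0% of all genes lay wholly above and 12.3% wholly below. When each library was scaled to its 75th percentile instead, the median of all genes moved to -0.13 and the split of all genes called went from 3269 higher and 3466 lower to 2644 higher and 4281 lower. With this scaling, calls of the 11 cytosolic members with the larger rises and of all 7 mitochondrial members that fell were the same, and those of Farsa and Farsb were lost. These calls are against 0, and changes relative to the shifted median were not tested.

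**Figure D1:**
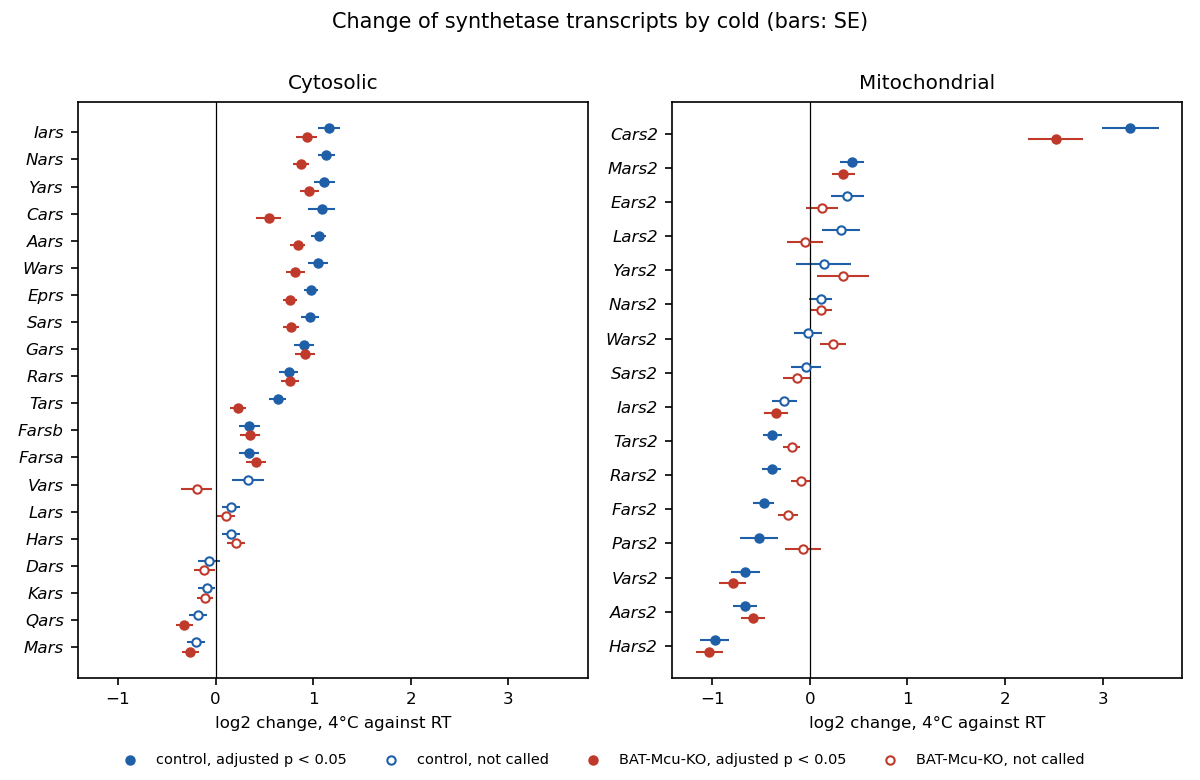
Change of each of the 36 synthetase transcripts by cold (x axis, log2 of 4°C against RT, bars are the standard error) in control (blue) and BAT-Mcu-KO mice (red), with cytosolic members on the left and mitochondrial ones on the right. Filled points are called at an adjusted p-value under 0.05. In control mice the cytosolic points run from -0.20 to 1.17, while the mitochondrial points run from -0.97 to 0.43 apart from Cars2 at 3.28.

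Among the cytosolic members, Eprs, which encodes the synthetase for glutamate and proline, had the smallest p-value. Its normalized read count in control mice at RT was 1169.9 at the lowest, 1307 at the median and 1338 at the highest. In the 5 control mice at 4°C it was 2680.2, 2351, 2404, 2419.8 and 2771. The groups did not overlap, and the log2 change was 0.97 (SE 0.07, adjusted p = 4.6e-11, limma). Eprs lies on chromosome 1 (GRCm38, chr1:185363044-185428360, plus strand). In BAT-Mcu-KO mice the count went from 1223 to 1429.5 (median 1308) at RT to 1933 to 2370.0 (median 2272) at 4°C, again without overlap, with a log2 change of 0.76 (SE 0.07, adjusted p = 1.4e-09, limma).

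Aars, the alanyl-tRNA synthetase, whose promoter holds a match printed above, roughly doubled. Counts in control mice at RT were 500.5 to 565 (median 527). At 4°C they were 1038, 1052, 1134, 1014 and 1271. Even the lowest mouse at 4°C was far above the highest at RT, and the change was 2.08-fold (log2 change 1.06, SE 0.08, adjusted p = 9.5e-11, limma). In BAT-Mcu-KO mice counts went from 482 to 548 (median 521) at RT to 833 to 1135 (median 894) at 4°C, a change of 1.79-fold, also without overlap. Exons of Aars share 1326 bp with Exosc6 on the same strand.

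Nars, the asparaginyl-tRNA synthetase, had counts of 756 to 912 (median 800.3) in controls at RT. In the control mice at 4°C they were 1820.5, 1753, 1796, 1717 and 1886. The 5 mice at 4°C lay close together, and the change was 2.19-fold (log2 change 1.13, SE 0.09, adjusted p = 1.1e-10, limma). BAT-Mcu-KO mice went from 762 to 842 (median 800.2) at RT to 1217 to 1737 (median 1508) at 4°C. At 4°C their spread was wider than in control mice, with an SD of 223 against 64.9.

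Sars, the seryl-tRNA synthetase, went from 772 to 1041 (median 966) in controls at RT to 1685, 1552, 2011, 1990.0 and 1787 at 4°C. The groups did not overlap, and the log2 change was 0.97 (SE 0.09, adjusted p = 2.5e-09, limma). Yars, the tyrosyl-tRNA synthetase, went from 296 to 399 (median 325) at RT to 637, 706, 738, 757 and 819.5 at 4°C in control mice. Its groups did not overlap either, and the log2 change was 1.11 (SE 0.11, adjusted p = 4.8e-09, limma). Among BAT-Mcu-KO mice, Sars went from 905 to 982 (median 958) to 1442 to 1769 (median 1677), and Yars from 267 to 335 (median 329) to 509 to 771 (median 616). Both were higher in all 6 cold mice than in any RT mouse.

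**Figure D2:**
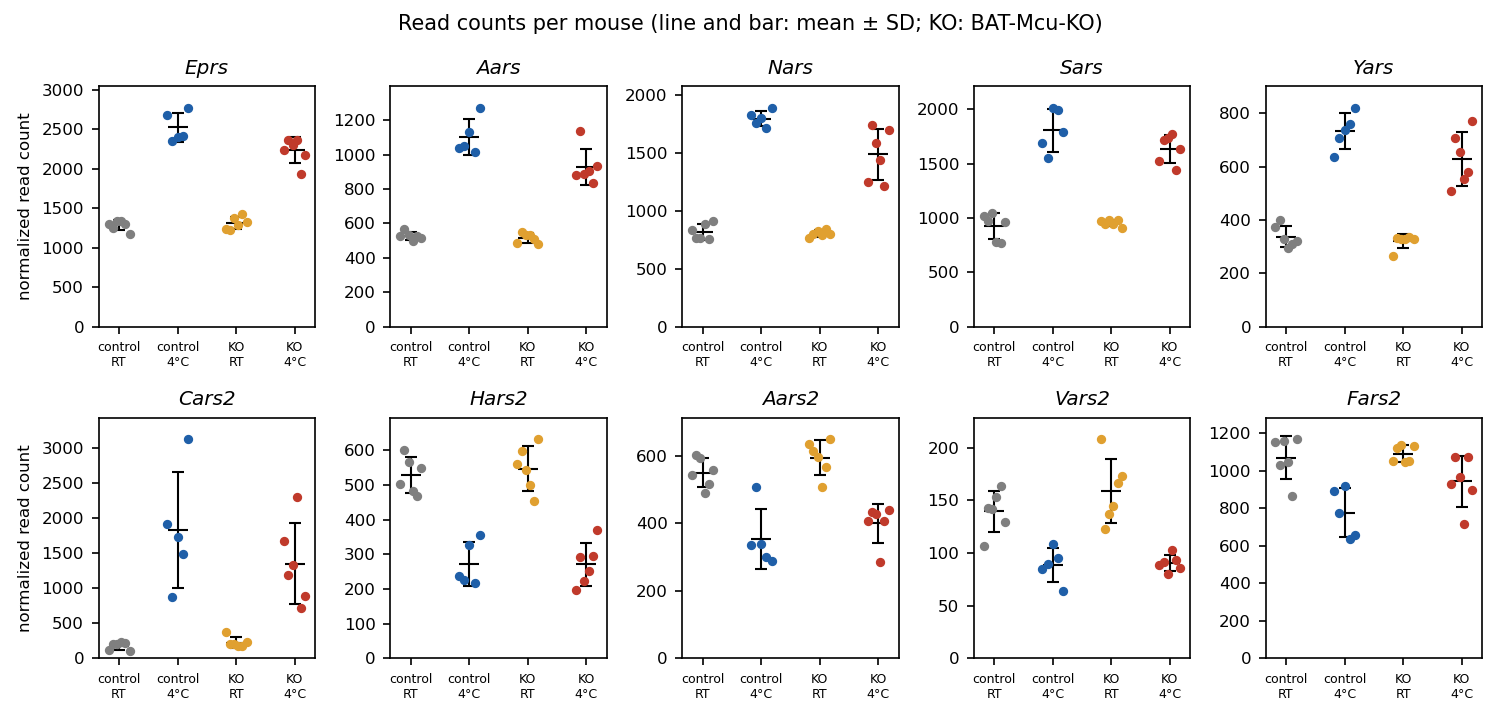
Normalized read count (y axis, linear from 0) of the 5 cytosolic (top) and 5 mitochondrial (bottom) members with the smallest p-values by cold in control mice, in the 4 groups (x axis). Each point is a mouse, and the line and bar are the mean and SD. All cold mice lie above all RT mice of their genotype for the 5 cytosolic members and for Cars2, and below them for Hars2.

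The remaining cytosolic members that rose in control mice had log2 changes of 1.17 (Iars, isoleucine), 1.09 (Cars, cysteine), 1.05 (Wars, tryptophan), 0.91 (Gars, glycine), 0.75 (Rars, arginine), 0.64 (Tars, threonine), 0.35 (Farsb) and 0.34 (Farsa). Farsa and Farsb encode the subunits of the cytosolic phenylalanine enzyme. They had the smallest rises, with adjusted p-values of 0.009 and 0.0099 (limma), and RT and 4°C mice overlapped for both. Without the 5 libraries rich in muscle markers the log2 changes of Farsa and Farsb were 0.31 and 0.30 and no longer passed (adjusted p = 0.073 and 0.078, limma). The 7 cytosolic members not called had log2 changes of 0.33 (Vars), 0.16 (Lars), 0.16 (Hars), -0.07 (Dars), -0.09 (Kars), -0.18 (Qars) and -0.20 (Mars). Of these, Mars and Qars were called lower when libraries were scaled to their 75th percentile (log2 changes of -0.31 and -0.29), where 2 cytosolic members fell, and with quantile normalization Kars was called as well.

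The cytosolic members were then set apart by their known assembly and by ATF4. Of the 8 cytosolic members in the multisynthetase complex 3 rose (Iars, Eprs and Rars), with a median log2 change of 0.04 over the 8, and Lars, Mars, Qars, Kars and Dars were not called. Of the 12 outside the complex 10 rose, with a median of 0.94. Of the 12 members listed as ATF4 targets 10 rose, with a median of 1.01, and the exceptions were Lars and Mars. Of the 8 not listed 3 rose (Rars, Farsa and Farsb), with a median of 0.24. The 5 members with a CARE match rose, as did 9 of the 13 cytosolic members with a promoter sequence. Eprs, Sars, Farsa and Farsb were among these 9 and had no match. By structural class, 6 of the 10 class I and 8 of the 11 class II cytosolic members rose, with Eprs, which has a domain of each class, counted in both. Over all genes 22.3% rose, 23.7% fell and the median was -0.02, and these groupings were not compared by a test.

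Gars and Kars, each a single gene for both compartments, parted. Gars went from 1490.5 to 1686 (median 1615) in controls at RT to 3827, 2997, 3049, 2502 and 2809 at 4°C. Kars went from 816 to 1135 (median 974) to 908, 804, 1003, 826 and 1043. The groups did not overlap for Gars (1.88-fold, adjusted p = 1.3e-07, limma) and overlapped for Kars (0.939-fold, adjusted p = 0.43), where 1 cold mouse lay just below the RT range.

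The mitochondrial member that moved most was Cars2, the mitochondrial cysteinyl-tRNA synthetase (chr8:11513977-11550783, minus strand). Counts in control mice at RT were 98.3 to 239 (median 204). In the control mice at 4°C they were 1922, 879, 1729, 1494 and 3122. The lowest cold mouse was far above the highest RT mouse, although the cold mice differed widely among themselves (SD 823 around a mean of 1829). The change was 9.74-fold (log2 change 3.28, SE 0.29, adjusted p = 1.6e-09, limma), the largest of the 36 members. In BAT-Mcu-KO mice counts went from 175 to 369 (median 199.8) at RT to 715 to 2307 (median 1257) at 4°C, a change of 5.73-fold (log2 change 2.52, SE 0.28, adjusted p = 6.7e-08, limma) without overlap. Exons of Cars2 share 422 bp with Naxd on the opposite strand, and reads were counted without regard to strand. Apart from Cars2, only Mars2 rose among the mitochondrial members, with a log2 change of 0.43 (SE 0.12, adjusted p = 0.0053, limma). Mars2 encodes the methionine enzyme, and its call was lost without the 5 muscle-rich libraries (0.34, adjusted p = 0.058, limma).

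Hars2, the mitochondrial histidyl-tRNA synthetase, fell most. Its count was 468 to 601 (median 526) in controls at RT. At 4°C it was 239, 226, 326, 217 and 357. The groups did not overlap, and the fold was 0.509 (log2 change -0.97, SE 0.15, adjusted p = 5.3e-06, limma). BAT-Mcu-KO mice went from 455 to 632 (median 551) to 196 to 370.4 (median 272), again without overlap (log2 change -1.03, SE 0.14, adjusted p = 1.3e-06, limma). Hars, the cytosolic histidine enzyme, starts next to Hars2 on the opposite strand of the same chromosome, and 195 bp of their exons overlap. Its count was 401 to 623 (median 483) in controls at RT and 540.1, 551, 568, 497 and 528 at 4°C. Hars was not called in either genotype, with log2 changes of 0.16 (adjusted p = 0.19) and 0.21 (adjusted p = 0.069, limma). After subtraction of each group mean, the log2 values of Hars and Hars2 had a correlation of 0.29 over the 23 mice, which share libraries and depth.

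Aars2, the mitochondrial alanine enzyme, had counts of 488 to 602 (median 551) in controls at RT and 336, 507, 339, 299 and 288 at 4°C. The second of the cold mice, one of the 5 rich in muscle markers, lay within the range of the RT mice and the other 4 lay below it, with a log2 change of -0.66 (SE 0.13, adjusted p = 0.0001, limma). Vars2, the valine enzyme, had counts of 107 to 164 (median 142) at RT and 85.0, 89.5, 108, 95.5 and 64.1 at 4°C. The groups met only at the edge, with a log2 change of -0.66 (SE 0.15, adjusted p = 0.00059, limma). Fars2, the phenylalanine enzyme, had counts of 866 to 1167 (median 1100.1) at RT and 894, 777, 916, 635 and 656 at 4°C. Here 2 cold mice lay within the RT range, and the log2 change was -0.47 (SE 0.11, adjusted p = 0.00089, limma). Exons of Fars2 share 501 bp with Nrn1 and 115 bp with Lyrm4 on the opposite strand.

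Of the other mitochondrial members that fell in control mice, Tars2, the threonine enzyme, had counts of 547 to 660.5 (median 589) at RT and 419, 516, 468, 450.3 and 429.8 at 4°C, without overlap (log2 change -0.38, adjusted p = 0.0016, limma). Rars2, the arginine enzyme, had counts of 380.0 to 506 (median 459) at RT and 295, 369, 339.8, 322 and 420.2 at 4°C. A single cold mouse reached into the RT range, and the log2 change was -0.39 (adjusted p = 0.0027, limma). Pars2, the proline enzyme, had counts of 91.1 to 159.9 (median 126) at RT and 93.0, 98.6, 84.6, 76.4 and 86.6 at 4°C. Its log2 change was -0.52 (adjusted p = 0.03, limma), and the call of Pars2 was lost when any of control RT mice 4 or 6 or control 4°C mice 3, 4 or 5 was left out, with adjusted p-values of 0.05018 to 0.07142. The mitochondrial members not called had log2 changes of 0.38 (Ears2, glutamate), 0.33 (Lars2, leucine), 0.14 (Yars2, tyrosine), 0.11 (Nars2, asparagine), -0.02 (Wars2, tryptophan), -0.04 (Sars2, serine) and -0.26 (Iars2, isoleucine). By structural class, 5 of the 7 class II mitochondrial members fell and 0 rose, while 2 of the 9 class I members fell and 2 rose. Over all genes 23.7% fell and 22.3% rose, and the class I counts are near these shares. The classes were not compared by a test.

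Counts of Lars2 are uncertain. A stretch of 72 bp of its transcript matches Gm15564, another gene of the table, at 98.61% identity. The ratio of the count of Lars2 to that of Gm15564 stayed between 6.96 and 8.73 in the 23 mice, and the counts had a Pearson correlation of 0.984 and a Spearman correlation of 0.864 over the mice (0.957 by Pearson without the 2 mice farthest from the median). Lars2 counts were 4701 to 9747 (median 5808) in controls at RT and 6198, 6638, 6607, 12789 and 6914 at 4°C, and the fourth of the cold mice stood apart from the rest. Lars2 was therefore kept out of the sums over mitochondrial members given next.

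**Figure D3:**
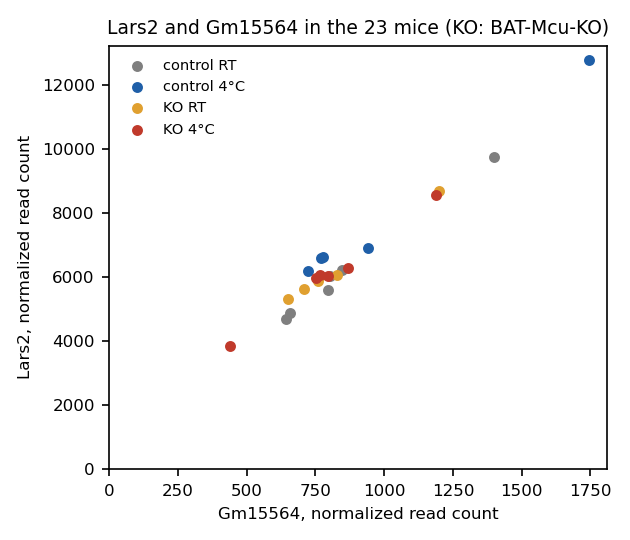
Normalized read count of Lars2 (y axis) against that of Gm15564 (x axis), 1 point for each of the 23 mice, coloured by group. The points lie near a line through the origin, with ratios between 6.96 and 8.73.

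Levels were compared between genes as normalized reads per kb of exon. At RT in control mice Lars2 stood highest at 558 ± 166 per kb, followed by Gars at 514 ± 22.1, Mars at 230.3 ± 27.3, Kars at 219 ± 26.2 and Hars at 199 ± 34.1 (SD, n = 6). On this length Lars2 and Gars did not differ beyond their spread, nor did Mars, Kars and Hars. The lowest were Mars2 at 17.5 ± 3.16, Yars2 at 19.8 ± 4.29 and Cars at 22.6 ± 3.06. Cars2 was 32nd of the 36 at RT and 6th at 4°C with 253 ± 114 per kb (n = 5), while Hars2 went from 13th to 26th. The order depends on the length used. With the longest transcript instead of all exons, Lars2 stood at 1590 per kb and Gars at 674 in control mice at RT, Mars was 8th, Hars 11th and Cars 29th with 46.2, the third lowest was Vars2 with 31.5, and Cars2 went from 28th to 4th by cold.

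The summed level of the 20 cytosolic members was 2708 ± 130 per kb in control mice at RT (SD, n = 6). At 4°C it was 4181 ± 221 (n = 5). The BAT-Mcu-KO mice had 2751 ± 58.8 at RT and 3939 ± 269 at 4°C (n = 6 each). Within each genotype every cold mouse was above every RT mouse. Gars was the largest term of this sum, with 514 per kb at RT and 974 at 4°C in control mice. Gars and Kars encode the enzymes of both compartments but are counted as cytosolic in this sum and in the ratio below. The 15 mitochondrial members other than Lars2 summed to 1066 ± 67.6 at RT and 1063 ± 103 at 4°C in control mice, and to 1103 ± 41.6 and 1079.7 ± 39.0 in BAT-Mcu-KO mice. These sums overlapped between the temperatures, with Cars2 making up 2.36% of the sum at RT and 23.3% at 4°C in control mice. Without Cars2 the sum was 1040.5 ± 69.9 at RT and 811 ± 54.4 at 4°C in control mice, while BAT-Mcu-KO mice had 1072 ± 34.7 and 893 ± 77.5, and all cold mice were below all RT mice of their genotype. The ratio of the cytosolic sum to the mitochondrial sum without Lars2 was 2.55 ± 0.11 at RT and 3.95 ± 0.26 at 4°C in control mice, and 2.50 ± 0.09 and 3.65 ± 0.25 in BAT-Mcu-KO mice.

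**Figure D4:**
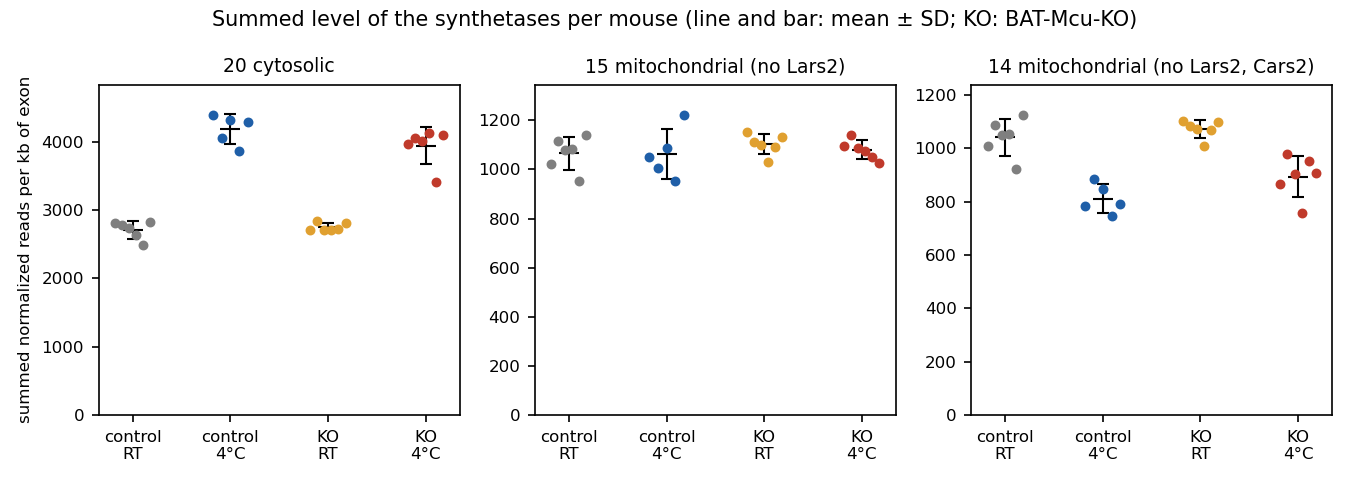
Summed normalized reads per kb of exon (y axis, linear from 0) of the cytosolic members (left), of the mitochondrial members without Lars2 (middle) and without Lars2 and Cars2 (right) in the 4 groups (x axis). Points are mice, and the line and bar are the mean and SD. The cytosolic sum is higher in every cold mouse, the middle sum overlaps between temperatures, and the sum without Cars2 is lower in every cold mouse.

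Cytosolic and mitochondrial enzymes for the same amino acid were paired within each mouse, which gave 17 pairs, with Eprs set against both Ears2 and Pars2 and Fars2 against both Farsa and Farsb. In control mice the ratio of the cytosolic to the mitochondrial count was higher at 4°C in 14 of the 17 pairs, with a median change of 1.01 on the log2 scale. In 12 pairs all cold mice had a higher ratio than all RT mice, and in 1 pair, Cars with Cars2, all cold mice had a lower one. How often the ratios of other gene pairs separate in this way was not computed for either genotype. Of single genes in control mice, 13.0% lay wholly above and 12.3% wholly below. Lars with Lars2, whose counts are uncertain, is among the 17 pairs, and its ratio overlapped between temperatures. The largest rise was that of Aars with Aars2 (1.72), and Iars with Iars2 rose by 1.42 and Rars with Rars2 by 1.14. Hars with Hars2 rose by 1.13, of which 0.16 is the change of Hars and -0.97 that of Hars2. For Cars with Cars2 the log2 ratio went from -0.22 ± 0.64 to -2.42 ± 0.53. In BAT-Mcu-KO mice 15 of the pairs had a higher mean ratio at 4°C, with a median change of 0.63, and the mice did not overlap for 9 pairs that went up and 2 that went down (Cars with Cars2, and Mars with Mars2).

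In BAT-Mcu-KO mice cold also raised 13 cytosolic members, and 2 fell and 5 were not called. Of the mitochondrial members 2 rose, 4 fell and 10 were not called. Over all genes 21.4% rose and 21.9% fell in these mice. The 13 cytosolic members that rose were those that rose in control mice, and the 2 mitochondrial ones were again Cars2 and Mars2. The median log2 change was 0.48 over the cytosolic and -0.08 over the mitochondrial members, against -0.02 over all genes. All cold mice were above all RT mice for 11 cytosolic members and 1 mitochondrial member, against 12.4% of all genes, and below for 0 and 3, against 11.9%.

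The log2 changes in control and BAT-Mcu-KO mice were 1.17 and 0.93 for Iars, 1.13 and 0.87 for Nars, 1.09 and 0.55 for Cars, 1.05 and 0.81 for Wars, and 0.64 and 0.23 for Tars. They were 0.91 and 0.92 for Gars, 0.75 and 0.76 for Rars, 0.34 and 0.41 for Farsa, and 0.35 and 0.35 for Farsb. For Aars, Eprs, Sars and Yars they were 1.06 and 0.84, 0.97 and 0.76, 0.97 and 0.77, and 1.11 and 0.96. The value was thus smaller in BAT-Mcu-KO mice in 9 of the 13 members that rose, and the same or larger in Gars, Rars, Farsa and Farsb. The call of Tars in BAT-Mcu-KO mice (adjusted p = 0.023, limma) was lost without RT mouse 1 (adjusted p = 0.069) or without 4°C mouse 2 (adjusted p = 0.069), and also with quantile normalization (0.16, adjusted p = 0.11) and 75th percentile scaling (0.18, adjusted p = 0.081).

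The cytosolic members that fell in BAT-Mcu-KO mice were Qars and Mars, which encode the glutamine and methionine enzymes, both of the multisynthetase complex. Qars counts were 653 to 785 (median 700.1) at RT and 459 to 654 (median 577) at 4°C, with a log2 change of -0.32 (SE 0.09, adjusted p = 0.0045, limma). Mars counts were 732 to 939.8 (median 785) at RT and 606 to 747 (median 666) at 4°C, with a log2 change of -0.26 (SE 0.09, adjusted p = 0.021, limma). For both genes the groups overlapped at the edge. Without the muscle-rich libraries the change of Qars was -0.31 (adjusted p = 0.054), and without RT mouse 2 or 4°C mouse 4 that of Mars was -0.21 or -0.23 (adjusted p = 0.064 or 0.052, limma). Exons of Mars share 68 bp with Ddit3 on the opposite strand.

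The mitochondrial members that fell in BAT-Mcu-KO mice were Hars2, Vars2, Aars2 and Iars2. Vars2 counts were 123 to 208 (median 155) at RT and 79.9 to 103 (median 90.0) at 4°C, with a log2 change of -0.79 (SE 0.14, adjusted p = 5e-05, limma). Aars2 counts were 507 to 649 (median 605) at RT and 286 to 440.5 (median 417) at 4°C, with a log2 change of -0.58 (SE 0.12, adjusted p = 0.0003, limma). The cold and RT mice did not overlap for either. Iars2, which shares 2034 bp of exon with Rab3gap2 on the opposite strand, had counts of 859 to 1596 (median 989) at RT and 682 to 989.8 (median 813) at 4°C, with a log2 change of -0.35 (SE 0.12, adjusted p = 0.025, limma). This call was lost without RT mouse 1 (-0.23, adjusted p = 0.086) or without 4°C mouse 6 (-0.29, adjusted p = 0.068). Rars2, Fars2, Tars2 and Pars2, which fell in control mice, had log2 changes of -0.09, -0.22, -0.19 and -0.07 here and were not called. Fars2 and Tars2 were called lower in these mice too with quantile normalization (-0.35 and -0.26, adjusted p = 0.0035 and 0.018, limma) and with 75th percentile scaling (-0.27 and -0.24, adjusted p = 0.037 and 0.039, limma). The differences between the genotypes are given with the interaction.

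The partners of the synthetases did not follow a single direction. Of 14 genes that assist or use cytosolic charging, 4 rose and 3 fell in control mice, where 22.3% of all genes rose and 23.7% fell. Eef1e1, which encodes a scaffold subunit of the multisynthetase complex, rose by 1.09 on the log2 scale and Xpot, the exporter of tRNA from the nucleus, by 1.00 (adjusted p = 8e-07 and 3e-06, limma), while Aimp1, another scaffold subunit, rose by 0.33 and Sepsecs, an enzyme of selenocysteinyl-tRNA synthesis, by 0.34. Pstk, which acts before Sepsecs in that synthesis, had a log2 change of -1.09, and the D-aminoacyl-tRNA deacylases Dtd1 and Dtd2 had -1.16 and -0.67. In BAT-Mcu-KO mice 4 of the 14 rose and 4 fell, against 21.4% and 21.9% of all genes. Of 8 mitochondrial partners 1 rose and 3 fell in control mice. Against these shares of all genes, nothing particular to the partners is read from the counts. The elongation factor Gfm1 rose by 0.51 on the log2 scale. Mtfmt, which formylates the initiator tRNA, had a log2 change of -0.61, the elongation factor Tsfm -0.41 and Gatb, a subunit of the amidase that makes glutaminyl-tRNA, -0.30. In BAT-Mcu-KO mice 1 rose (Gfm1, by 0.49) and 1 fell (Gatb at -0.27).

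Atf4 itself went from 536 to 695 (median 619.9) in controls at RT to 2978, 3015, 2769, 3071 and 3128 at 4°C. BAT-Mcu-KO mice went from 455 to 585 (median 512) to 1417 to 2218 (median 2069). The log2 changes were 2.30 and 1.88, with no overlap in either genotype. Of 11 genes of the integrated stress response in the table, Atf4 included, 8 rose and 1 fell by cold in control mice, against 22.3% and 23.7% of all genes, and 6 rose and 1 fell in BAT-Mcu-KO mice, against 21.4% and 21.9%. After subtraction of group means the correlation with Atf4 over the 23 mice ran from -0.254 (Mars) to 0.759 (Nars) among the cytosolic members and from -0.279 (Tars2) to 0.37 (Rars2) among the mitochondrial ones. The cytosolic members that rose ranged widely too, from 0.0563 for Rars, 0.124 for Farsb and 0.146 for Gars to 0.523 for Eprs and 0.759 for Nars. These mice share depth and normalization, and the values are descriptions. The same deviations had a median correlation of 0.152 between cytosolic members, 0.0358 between mitochondrial members and 0.00856 between the compartments, against -0.00148 between all genes.

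Genotype called none of the 36 members at either temperature. At RT 0 members were called, against 0.0205% of all genes higher and 0.0273% lower, and 0 members had an unadjusted p-value under 0.05 by limma, where 2.88% of all genes were higher and 2.27% lower at that limit. DESeq2 and edgeR on the recovered reads called 0 members as well. The smallest p-values were those of Tars (log2 change of BAT-Mcu-KO against control 0.15), Farsa (-0.17), Qars (0.15) and Iars2 (0.19), with adjusted p-values from 0.95 to 0.97 by limma. The RT groups overlapped for every member, where 0.102% of all genes lay wholly above and 0.116% wholly below.

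At 4°C 0 members were called by limma, DESeq2 or edgeR, against 0.0410% of all genes higher and 0.0341% lower by limma. Nars had 1820.5, 1753, 1796, 1717 and 1886 in control mice and 1217 to 1737 (median 1508) in BAT-Mcu-KO mice, a log2 difference of -0.29 (SE 0.09, adjusted p = 0.43, limma). Cars had 293, 276, 305, 336 and 374 in control and 185 to 323 (median 226) in BAT-Mcu-KO mice, a log2 difference of -0.42 (SE 0.14, adjusted p = 0.48, limma). In both genes most BAT-Mcu-KO mice were below the control mice and the groups overlapped. Aars differed by -0.25 (SE 0.08, adjusted p = 0.49, limma) and Tars by -0.25 (SE 0.08, adjusted p = 0.53, limma). The genotypes overlapped for all 36 members at 4°C, where 0.389% of all genes lay wholly above and 0.293% wholly below.

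Without adjustment, 8 cytosolic members at 4°C had a p-value under 0.05 with lower levels in BAT-Mcu-KO mice (Nars, Cars, Aars, Tars, Eprs, Wars, Yars and Vars), where 2.81% of all genes did. In 15 of the 20 cytosolic members the difference was negative, where it was in 7143 of all 14651 genes. The median was -0.12 over the cytosolic members against 0.01 over all genes. Of the 8, 7 lie outside the multisynthetase complex, as do 12 of the 20 cytosolic members. Likewise 7 of the 8 are listed as ATF4 targets, as are 12 of the 20. Of the mitochondrial members 2 (Rars2 at 0.26 and Fars2 at 0.28) had a p-value under 0.05 with higher levels in BAT-Mcu-KO mice, where 4.17% of all genes did, and the median was 0.08. None passed the adjustment. For comparison, Atf4 differed by -0.66 at 4°C (SE 0.11, adjusted p = 0.015, limma), with all BAT-Mcu-KO mice below all control mice.

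**Figure D5:**
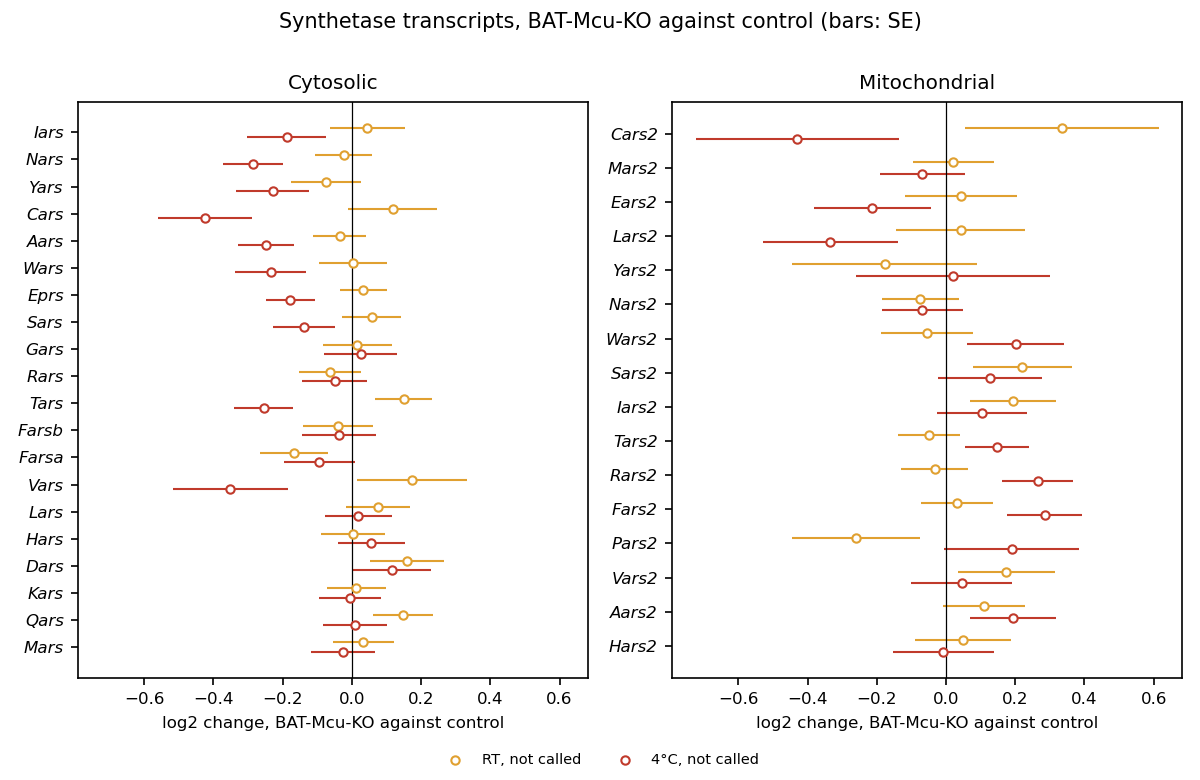
Difference of BAT-Mcu-KO from control mice (x axis, log2, bars are the standard error) for each of the 36 synthetase transcripts at RT (yellow) and at 4°C (red), in the order of their change by cold in control mice. Open points did not pass an adjusted p-value of 0.05, and all points are open. At 4°C 15 of the 20 cytosolic points lie below 0, against 6 at RT. Of all 14651 genes 7143 lie below 0 at 4°C and 7294 at RT.

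The interaction, the difference between the cold changes of the genotypes, called 0 members and 0 of all genes by limma (0.00% in each direction). At an unadjusted p-value under 0.05, 5 cytosolic members had a lower cold change in BAT-Mcu-KO mice (Tars, Cars, Vars, Nars and Eprs), where 3.11% of all genes were lower, and 1 mitochondrial member (Rars2) a higher one, where 2.89% of all genes were higher. Without regard to members, 878 genes had such a p-value, and DESeq2 called 28 genes, none of them a member, and edgeR 0. The smallest p-values were those of Tars (-0.40), Cars (-0.54), Vars (-0.52) and Nars (-0.26), with adjusted p-values from 0.71 to 0.81 by limma. Cars2, with cold changes of 3.28 and 2.52, had an interaction of -0.77 (SE 0.41, adjusted p = 0.84, limma). The cold changes of the genotypes were thus not shown to differ for any synthetase.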

How the data were processed

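Libraries were made from total RNA of BAT by a protocol based on Smart-seq2. The authors aligned the reads to mm10 (GENCODE M7) with STAR 2.4.0j and counted reads in exons with HTSeq, irrespective of strand. The signal that was deposited consists of normalized counts: the authors scaled the reads by a size factor per sample (DESeq2, median ratio). In the file every gene has at least 9 reads in 6 samples. The deposited table of the authors' comparisons (fold changes, p-values) was not used. No sample column was left out, and 19 symbols had been turned into dates.

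All values (100.0%, within a tolerance of 0.05) were multiples of a step, the worth of a read, which gave the reads per sample, 7129271 to 21006347, of which mitochondrial transcripts took 23.1% to 38.1%. Replicates are separate mice, and no pair of the 55 within groups agreed within sampling noise (chi-square per degree of freedom 8.9 to 63.8).

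Limma (version 3.58.1, R version 4.3.3) was fitted to log2(normalized count + 1) of the 14651 genes with 4 group means, using all 23 samples together, a variance trend and two-sided tests. Fold changes are on that scale. Genes were called under 0.05 after Benjamini-Hochberg adjustment over these genes. The alternatives were pseudocounts of 0.5 and 10.0, filters on low values, quantile normalization, 75th percentile scaling, no trend, only the compared groups, the replicate number as a block, DESeq2 (1.42.0) and edgeR's quasi-likelihood test (4.0.16) on the recovered reads, each sample left out in turn, and, chosen after seeing the data, leaving out libraries rich in muscle markers. On simulated counts for cold in control limma found 66 of 66 genes changed 4-fold, 60 of 67 changed 2-fold and 16 of 67 changed 1.5-fold, with 9 false calls among 14451. Only these genes, none of low mean count, were changed there, with the same dispersion for every gene. In the data cold called 3269 genes higher and 3466 lower in control mice, so these rates need not hold for that comparison.

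Exon lengths and overlaps come from GENCODE M21 (GRCm38), promoters from RefSeq (GRCm38.p6). The members and the gene lists were chosen with earlier results of these data known. Every mouse or the range is given for the 5 members per compartment with the smallest p-value by cold in control, for Hars and Hars2 and for called members that fell; by genotype and interaction the 4 members with the smallest p-values are named. Some items are not reported here.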

Additional observations from a re-analysis of the deposited data

Results flagged for a closer look

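In each group of 5 or 6 mice the highest and the lowest count of every member were tested by their gap to the next mouse over the range of the group (Dixon's 95% limit). Of 144 groups 11 had such a mouse, where chance gives about 1 in 20.

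Of these, 4 were BAT-Mcu-KO mouse 1 at RT, with the highest counts of Vars (259.744), Cars2 (369.337) and Iars2 (1596.43) and the lowest of Yars (266.648) in its group. Without it the fall of Iars2 by cold in BAT-Mcu-KO mice was no longer called. Lars2 was highest in control 4°C mouse 4 (12788.7) and in BAT-Mcu-KO RT mouse 2 (8690.12). Its counts moved with those of Gm15564, and the source of these reads was not settled. Aars2 was highest in control 4°C mouse 2 (506.871), a library rich in muscle markers, and lowest in BAT-Mcu-KO 4°C mouse 4 (286.295), in which Wars2 was lowest as well (122.567). Aars was highest in BAT-Mcu-KO 4°C mouse 2 (1134.57), and Yars2 lowest in BAT-Mcu-KO 4°C mouse 6 (40.8797).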

How the results depend on the processing

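DESeq2 and edgeR gave the same counts of members called as limma in every comparison, and 0 members were called by genotype or interaction under any alternative, single samples left out included. With each sample left out in turn, cytosolic members higher by cold numbered 13 to 14 in control and 12 to 14 in BAT-Mcu-KO mice, and mitochondrial members lower 6 to 8 and 3 to 5. With quantile normalization or 75th percentile scaling the last of these counts were 8, with Iars2 added, and 6, with Fars2 and Tars2 added. The rises of Farsa and Farsb in control mice were not called with quantile normalization (adjusted p = 0.0643 and 0.0599, limma). Both calls were also lost with 75th percentile scaling and without the muscle-rich libraries. Cytosolic members lower in control (0) numbered 3 with quantile normalization, 2 with 75th percentile scaling, 1 with the replicate block and 0 to 1 with a sample left out. The calls came for Mars without control RT mouse 5 or control 4°C mouse 3 and for Qars without control 4°C mouse 1. Cytosolic members lower in BAT-Mcu-KO (2) numbered 3 with quantile normalization, with Kars added, 1 without the muscle-rich libraries and 1 to 2 with a sample left out. Mitochondrial members higher numbered 1 in control without the muscle-rich libraries and 2 to 3 with a sample left out, and in BAT-Mcu-KO 1 to 2, where Mars2 was lost without RT mouse 2. The cause was not tested, except that fewer samples enter the fits without libraries. Deviations of same-numbered mice had correlations of -0.204 to 0.0652 in the 2 cold comparisons and by genotype at RT, where 0 mice correlated best with their own number. By genotype at 4°C the correlations were 0.0416 to 0.218, and 3 of 5 mice correlated best with their own number. Whether same-numbered mice at 4°C share a source of variation was not tested. With the replicate block Hars was also called higher in BAT-Mcu-KO mice, and the cold change of Wars2 in control turned to 0.00082875.

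Changes near 0 that turned sign, none of them called, were in control Wars2 (0.028055 without the muscle-rich libraries, -0.12002 to 0.068757 with a sample left out), Sars2 (-0.14771 to 0.0393) and Yars2 (-0.035846 to 0.44967), and in BAT-Mcu-KO Lars2 (-0.15597 to 0.07551), Pars2 (-0.20825 to 0.08404) and Yars2 (-0.039206 without the muscle-rich libraries). With the longest transcript as length, the ratio of summed levels at 4°C was 3.497 in control mice and 3.291 in those of BAT-Mcu-KO. Normalized counts near 100 rest on few reads: Yars2 had 14 to 152 reads per mouse, and the part of counting error in its spread was not tested.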
